A study of Mus musculus with 16 samples.

Results

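The mRNAs described here are those recovered with the RNA-binding protein CPEB4 from macrophages after lipopolysaccharide (LPS), read as the log2 ratio between the CPEB4 immunoprecipitate (RIP) of wildtype (WT) cells and that of Cpeb4 knockout (KO) cells. A 3′-UTR region was a member if it carried a gene symbol and had 10 or more reads over the WT and the KO RIP together, which held for 15893 of 30622 regions with a symbol, belonging to 8318 of 14925 genes. Each library was scaled to its reads over regions with a symbol and 1 read was added. A gene was represented by its region with the most reads in the RIP pair.

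The study sequenced CPEB4 RIPs and the lysates they were made from (Input) in bone marrow-derived macrophages (BMDMs), to find which mRNAs CPEB4 binds in resting and in activated cells. BMDMs are macrophages grown from mouse bone marrow in medium that supplies M-CSF; these came from mice of the strain C57BL/6J 129. Samples numbered 76 in their titles were WT and those numbered 73 were CPEB4 KO, a deletion in the whole animal. The titles do not say what the number stands for. Cells of each genotype were either left untreated or stimulated for 9 h with 10 ng/ml LPS. All 4 groups used below after LPS (WT RIP, KO RIP, WT Input, KO Input) were therefore exposed to the same dose for the same time, and the pairs differ in genotype. Every group was 1 library read on 2 lanes, whose reads were summed in the count tables. There is thus no replicate, and the intervals given below are 95% intervals from the read counts: they cover counting error only, not the variation between cultures, animals or immunoprecipitations. The Inputs, and according to the labels not the RIPs, were depleted of ribosomal RNA.

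CPEB proteins bind the cytoplasmic polyadenylation element (CPE), a short U-rich sequence in the 3′-UTR, and lengthen or shorten the poly(A) tail of the mRNA, which changes its translation and stability. The CPE works together with the polyadenylation signal, the hexamer that directs cleavage at the end of the mRNA, and the distance and number of CPEs bear on whether an mRNA is repressed or activated. In macrophages, LPS acts through Toll-like receptor 4 and starts waves of mRNAs for cytokines, chemokines and their negative regulators, many of which carry AU-rich elements (AREs) that control how fast they are degraded.

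Stretches of 30 bases around a CPE (TTTTAT or TTTTAAT, read on the mRNA strand only) are printed for 5 of the mRNAs that were highest in the WT RIP and for 3 of the lowest, to show what the element looked like at both ends. They were read from the mm10 (GRCm38) genome, 5′ to 3′, and capitals mark the CPE nearest upstream of the last polyadenylation signal (AATAAA or ATTAAA) of the region and, where it falls in the stretch, that last signal. Other copies of either motif are left in lower case.
Prkar2b: ccttataataaagcacacTTTTATAATAAA
Fzd1: aaatgccatatTTTTAATttcgcaAATAAA
Csgalnact2: ttttaaactagcTTTTATttgaagatggaa
Rpn1: aaatcaatactTTTTAATatctgcaagcca
Cxcl1: aaagtgtgtggtTTTTATtttacattaata
Slfn4: aggttctgccaTTTTAATatttctaaaata
Ctsa: aaataagtatggTTTTATctaaggaaattc
Tspo: cagccatcatgcTTTTATgaccattgggcc
The first 5 were higher in the WT RIP and lie at chr12:31958476-31958505 (minus strand), chr5:4753866-4753895 (minus strand), chr6:118107527-118107556 (minus strand), chr6:88105228-88105257 (plus strand) and chr5:90892638-90892667 (plus strand). The last 3 were lower in the WT RIP and lie at chr11:83190166-83190195, chr2:164840943-164840972 and chr15:83574010-83574039, all on the plus strand. In Prkar2b the CPE ran straight into the last polyadenylation signal of the region, with 0 bases between them, and in Fzd1 it lay 6 bases upstream. The distances were 58 bases in Csgalnact2, 39 in Rpn1 and 443 in Cxcl1, against 8 in Slfn4, 56 in Ctsa and 150 in Tspo. A CPE close to a polyadenylation signal was thus present at both ends of the ranking. At the low end the closest were in Slfn4 and Ctsa, whose regions were not matched to an annotated 3′-UTR of GENCODE M21. Prkar2b held 5 CPEs and Csgalnact2 6, Slfn4 held 4, and Ctsa and Tspo 1 each. A CPE was found in 47.9% of all 30622 regions and in 58.9% of the 15893 members, and either signal in 74.2% and 81.2%, so a match on its own describes the sequence and does not mark a bound site.

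After LPS the WT RIP held 2492300 reads over regions with a symbol and the KO RIP 871482, so an mRNA at the same scaled level had 2.86 WT reads for each KO read. The Inputs were closer, with 1897360 and 1502378 reads. In the LPS Inputs the 17 macrophage markers summed to 3378 CPM (reads scaled to the library's sum over regions with a symbol) in WT and 3461 in KO, with 1 marker at 0 in both. Neutrophil markers summed to between 2.64 and 5.32 CPM with 2 to 3 of 4 at 0, lymphocyte markers to between 4.22 and 4.66 CPM with 5 to 6 of 9 at 0, and fibroblast markers to between 39.0 and 47.9 CPM with 4 to 5 of 7 at 0. The part of such cells in the ratios was not tested. Reads over the 3′-UTRs made up 70.1% of the authors' library total in the WT RIP and 31.8% in the KO RIP. All ratios are therefore relative to the other 3′-UTRs of the same library: scaled to the authors' library totals instead, every RIP ratio would be 1.14 higher on the log2 scale, and the distance of a gene from the median of all genes would be the same.

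Over all genes the WT and KO RIPs differed more widely than the WT and KO Inputs. The log2 ratio of the RIPs had a median of -0.045 and an SD across genes of 0.94, against an SD of 0.49 between the Inputs. Past 2-fold, 809 genes (9.73%) were higher and 1447 (17.4%) lower in the WT RIP, while 218 genes (2.88%) were higher and 167 (2.21%) lower in the WT Input. Counted by region, 1477 members (9.29%) were higher and 3095 (19.5%) lower. In the untreated RIPs, 717 genes (9.6%) were higher and 976 (13.1%) lower. Many of the lower genes had few reads: with 50 or more reads in the RIP pair the LPS split was 525 (10.1%) higher and 507 (9.78%) lower of 5182 genes, and the SD was 0.79; at the same limit 33 genes (0.745%) were higher and 27 (0.609%) lower in the WT Input, and 431 (10.4%) and 270 (6.49%) in the untreated WT RIP. The split also rests on the scaling, since the authors' library totals give 4512 genes higher and 169 lower. The 418 regions just inside the limit, with 10 reads, had a median ratio of -1.03 (from -4.98 to 1.94), and the 421 regions with 9 reads, just outside it, a median of -1.25 (from -4.84 to 1.81).

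**Figure D1:**
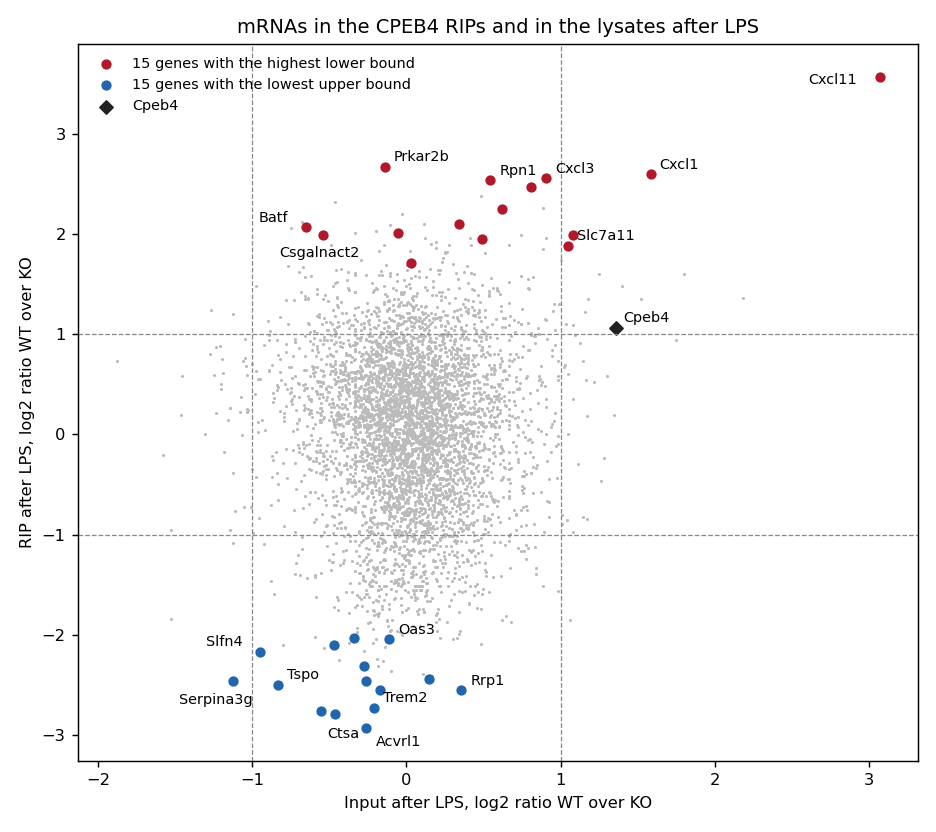
Log2 ratio of WT over KO in the RIPs after LPS (vertical axis) against that in the Inputs (horizontal axis), 1 point for each of 4930 genes with 50 or more RIP reads and 10 or more reads in each Input; dashed lines mark 2-fold, red and blue points the 15 genes at either end, and the black diamond Cpeb4. Cxcl11 sits at the upper right with ratios of 3.57 and 3.07, while Prkar2b has a RIP ratio of 2.67 with an Input ratio of -0.14.

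Cpeb4 mRNA, the transcript of the deleted gene, had 1920 reads over its 3′-UTR (chr11:31931533-31935634, plus strand, 4102 bases) in the WT RIP and 320 in the KO RIP, and 258 in the WT Input against 79 in the KO Input. The ratio was 1.07 (95% interval 0.89 to 1.24) in the RIPs and 1.36 (0.996 to 1.72) in the Inputs. Reads thus remained over the 3′-UTR in the KO libraries, and which exons the deletion removed was not given in the sources used here, so this 3′-UTR count is no direct check of the deletion. In the untreated RIPs the reads were 1392 and 120, a ratio of 1.69.

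The 15 mRNAs with the highest lower bound of the ratio ranged from 1.71 to 3.57. They were named among 4930 genes with 50 or more RIP reads and 10 or more reads in each Input. Chemokines led them. Cxcl11, a ligand of the T-cell receptor CXCR3, had 474 reads in the WT RIP and 13 in the KO RIP (3.57, 2.80 to 4.34), and 116 and 10 in the Inputs, an Input ratio of 3.07. Cxcl3, a neutrophil attractant, had 403 and 23 RIP reads (2.56, 1.96 to 3.15) and 63 and 26 Input reads, a ratio of 0.91. Cxcl1, another ligand of the neutrophil receptor CXCR2, had 241 and 13 RIP reads (2.60, 1.82 to 3.37) and 52 and 13 Input reads, a ratio of 1.58. All 3 chemokines were thus also higher in the WT lysate, Cxcl11 by nearly as much as in the RIP, and in untreated cells each had at most 4 reads over the RIP pair.

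Signalling proteins followed. Prkar2b, a regulatory subunit of protein kinase A, had 308 and 16 reads in the WT and KO RIPs (2.67, 1.96 to 3.37), and its Input reads were nearly alike, 38 and 33 (-0.14). Fzd1, a Wnt receptor, had 284 and 17 RIP reads (2.47, 1.78 to 3.16) and 114 and 51 Input reads (0.81). Both had been higher in the WT RIP of untreated cells as well, Prkar2b with 111 and 7 reads (1.97) and Fzd1 with 18 and 1 (1.42).

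Enzymes of protein glycosylation and sugar chain synthesis formed another set. Rpn1, a subunit of the oligosaccharyltransferase of the endoplasmic reticulum, had 198 and 11 RIP reads (2.54, 1.70 to 3.38) against 115 and 62 in the Inputs (0.54). B4galt1, a galactosyltransferase of the Golgi, had 1073 and 114 RIP reads (1.71, 1.43 to 1.98) and Input reads of 648 and 503, a ratio of 0.028. Csgalnact2, which starts and extends chondroitin sulfate chains, had 305 and 26 RIP reads (1.99, 1.42 to 2.55) and only 12 and 14 reads in the Inputs (-0.54). None of these was past 2-fold in the Input, and in untreated RIPs the ratios were 0.96, 1.44 and 1.73. The Rpn1 region overlaps the microRNA gene Mir6376 on the other strand.

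Slc7a11, the cystine transporter that feeds glutathione synthesis, was the most deeply read of the 15, with 1980 and 187 RIP reads (1.88, 1.67 to 2.10) and 819 and 313 Input reads, a ratio of 1.05. It had 17 and 3 RIP reads in untreated cells (0.34), and the difference between the treatments was not tested. Transcription factors and chromatin proteins made up most of the rest. Batf, an AP-1 family factor, had 262 and 21 RIP reads (2.06, 1.44 to 2.69) but fewer Input reads in WT than in KO, 52 and 65 (-0.65), and Gabpb1, the partner of the ETS factor GABPA, had 189 and 13 (2.25) with 32 and 16 in the Inputs (0.62). Tshz1, a zinc finger homeobox protein, had 306 and 24 RIP reads (2.10) and 39 and 24 Input reads (0.34). Psip1, a chromatin reader also called LEDGF, had 317 and 27 RIP reads (1.99) and 47 and 17 Input reads (1.08). Btbd1, which binds topoisomerase I, had 374 and 33 RIP reads (1.95) and 47 and 26 Input reads (0.49), and Tmem230, a membrane protein of transport vesicles, had 275 and 23 (2.01) and 44 and 36 (-0.054).

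The Input ratio was past 2-fold for 4 of the 15, namely Cxcl11, Cxcl1, Psip1 and Slc7a11. Among all 4930 genes, 15 were past 2-fold in the same direction in the RIP and the Input, and the highest of these were Cxcl11, Cxcl1 and Psip1. In the untreated RIPs 11 of the 15 leading mRNAs had 10 or more reads, all 11 had a ratio above 0 and 8 were past 2-fold. A CPE was found in 13 of the 15 regions, and the median GC content of the regions was 38.7%, against 44.4% over the 4930 genes.

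The 15 mRNAs at the other end ranged from -2.93 to -2.03. Ratios this low entail more reads in the KO RIP than in the WT RIP, so that followed from the selection. Ctsa, the lysosomal protective protein cathepsin A, had 79 reads in the WT RIP and 193 in the KO RIP (-2.79, -3.17 to -2.42), and 596 and 652 in the Inputs (-0.47). Tspo, the translocator protein of the outer mitochondrial membrane, had 72 and 143 (-2.50, -2.90 to -2.09) and Input reads of 225 and 318 (-0.83). Cyb5r3, a NADH-dependent reductase, had 177 and 253 (-2.03) and Input reads of 505 and 506 (-0.34), and Rab11fip5, an effector of the recycling GTPase RAB11, had 119 and 179 (-2.10) and 521 and 572 (-0.47). These 4 were abundant in the lysates of both genotypes and low in the WT RIP. The Ctsa region shares 311 bases with an exon of Pltp on the other strand, and the strand used in counting was not given, so some of its reads may be assigned to either gene.

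Surface receptors were the next set. Acvrl1, a type I receptor of the TGF-beta family, had 17 and 47 RIP reads (-2.93, -3.71 to -2.15) against 115 and 109 Input reads (-0.26). Trem2, a lipid-sensing receptor of macrophages and microglia, had 18 and 43 (-2.73, -3.50 to -1.95) against 106 and 97 (-0.21), and its relative Treml2 had 18 and 44 (-2.76) against 60 and 70 (-0.56). H2-T23, a non-classical MHC class I molecule, had 37 and 72 (-2.46) against 159 and 151 (-0.26), but it belongs to a family of near-identical genes whose reads may be split among copies. Pstpip1, an adaptor of the actin cytoskeleton, had 30 and 58 (-2.44) against 101 and 72 (0.15).

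Interferon-induced mRNAs were also at this end. Oas3, a sensor of double-stranded RNA, had 201 and 290 RIP reads (-2.04, -2.30 to -1.78) and 804 and 689 Input reads (-0.11). Slfn4, a schlafen family member, had 109 and 172 RIP reads (-2.17, -2.51 to -1.82) and 33 and 51 Input reads (-0.95), so it had more reads in both RIPs than in the Inputs. Serpina3g, a serine protease inhibitor, had 25 and 49 RIP reads (-2.46) and 58 and 101 Input reads, a ratio of -1.13, which made it the only one of the 15 past 2-fold in the Input as well. Slfn4 and Serpina3g had no read in either RIP of untreated cells. Rrp1 and Rrp7a, factors of ribosome assembly, had 20 and 42 (-2.55) and 66 and 115 RIP reads (-2.31). Serhl, a serine hydrolase-like protein, had 22 and 46 (-2.55), but its region shares 295 bases with an exon of Rrp7a on the other strand, so these mRNAs are not independent.

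Of the 15 lowest, 12 had 10 or more reads in the untreated RIPs, all 12 had a ratio below 0 there and 10 were past 2-fold. A CPE was found in 6 of the 15 regions and their median GC content was 53.5%. The authors' library totals add 1.14 to every ratio, so the 15 then ran from -1.79 to -0.89 and 12 of them were past 2-fold. Ratios as low as those selected stay below 0 under such a shift, so their sign is no separate check.

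**Figure D2:**
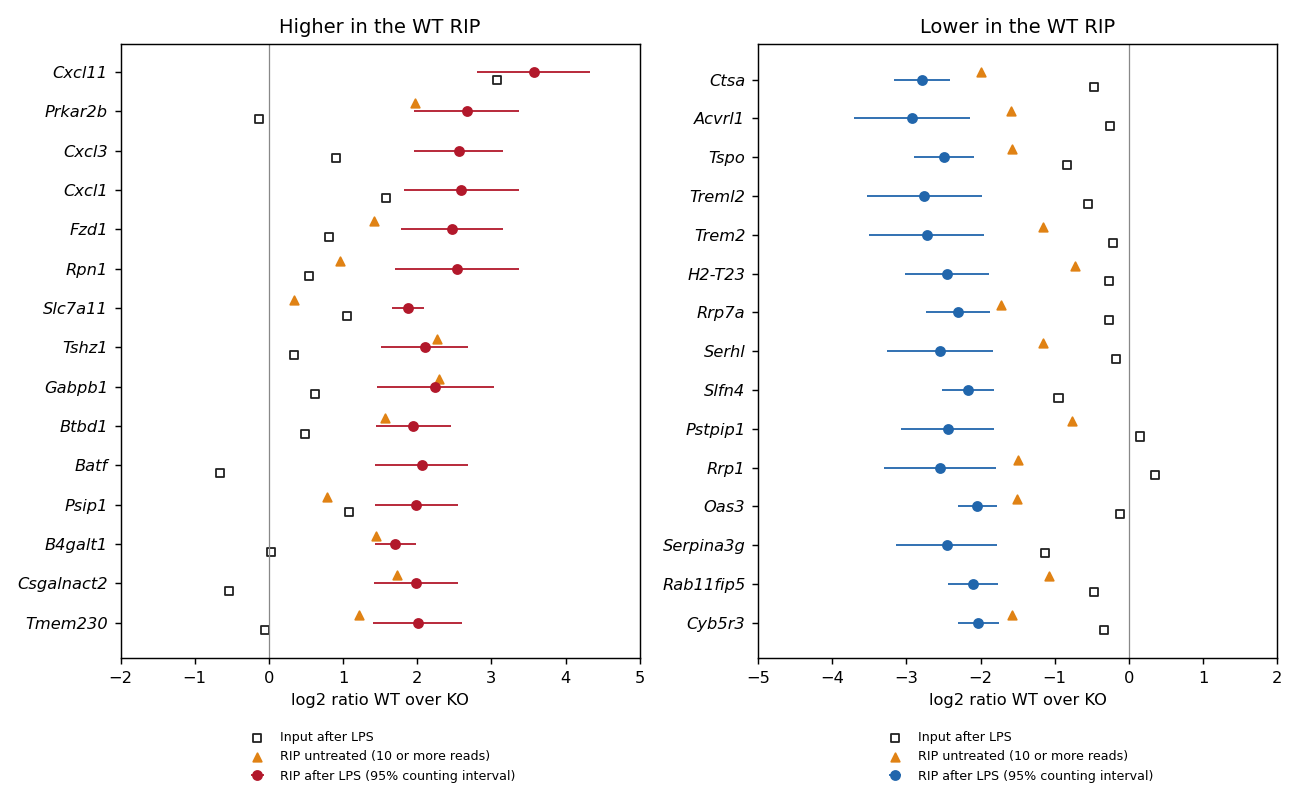
Log2 ratio of WT over KO for the 15 mRNAs highest (left) and the 15 lowest (right) in the WT RIP, with circles for the RIPs after LPS and their 95% counting interval, squares for the Inputs after LPS and triangles for the untreated RIPs where they had 10 or more reads. The squares have a median of 0.54 on the left and -0.27 on the right, with Cxcl11 at 3.07 the farthest from 0. Every triangle lies on the same side of 0 as its circle.

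Gene groups were then described by the median ratio of their members. Of 81 lists with at least 5 members measured, 14 had a median 0.5 or more away from that of all genes, 9 below and 5 above, and all 14 were on the same side in the untreated RIPs. Their Input medians were all within 0.25 of that of all genes. Since a change of scaling moves every gene alike, 41 lists had a median above 0 as scaled here and 77 with the authors' library totals, while the order of the lists stayed the same.

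The lowest medians belonged to mRNAs of oxidative phosphorylation, of glycolysis and of parts of the translation machinery. Of 52 subunits of oxidative phosphorylation, 34 (65.4%, against 17.4% of all genes) were past 2-fold lower in the WT RIP and 0 higher, with a median of -1.39 and an Input median of -0.11. Atp5d, a subunit of the ATP synthase rotor, had 57 and 67 reads in the WT and KO RIPs (-1.75) and 225 and 199 in the Inputs. At the other end of the list were the succinate dehydrogenase subunits Sdhc, with 351 and 99 RIP reads (0.30, interval -0.021 to 0.62), and Sdhd, with 344 and 110 (0.12). The regions of this list were short, with a median of 187.5 bases against 1268.5 over all genes, and 7.69% had a predicted CPE arrangement against 39.0% of all genes. Of 19 glycolysis enzymes 11 (57.9%) were lower and 0 higher (median -1.23). Pkm, the pyruvate kinase, had 389 and 428 RIP reads (-1.65) and 1079 and 946 Input reads, and the enolase Eno1 had 69 and 81 (-1.74). Hk2, the inducible hexokinase that starts the pathway, had 1536 and 326 RIP reads (0.72, 0.55 to 0.89) and 788 and 612 Input reads, and Slc2a1, the glucose transporter that supplies it, had 1217 and 263 RIP reads (0.69). These were among the 4 of 19 above the median of all genes. The 18 TCA cycle enzymes did not share this position, with 1 lower (5.56%), 2 higher (11.1%) and a median of -0.13.

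Of 57 cytosolic ribosomal proteins 34 were lower (59.6%, against 17.4% of all genes) and 0 higher, with a median of -1.17. Rpl41, the smallest of them, had 189 and 257 RIP reads (-1.96) and 352 and 291 Input reads, and Fau, which is fused to a ubiquitin-like protein, had 31 and 32 (-1.56). Rpl7l1 and Rpl22 were the highest of those with enough reads, at 0.42 (202 and 52 reads) and -0.02 (126 and 44 reads). The regions of this list had a median length of 95 bases, and ribosomal protein genes have many processed copies, so their counts are uncertain. Of 10 translation elongation and release factors 6 (60%) were lower (median -1.33). Among them was Eef2, which moves the ribosome along the mRNA, with 115 and 121 RIP reads (-1.59) and 402 and 308 Input reads. The 45 initiation factors did not share this position, with 7 lower (15.6%, against 17.4% of all genes), 0 higher and a median of -0.14. Neither did the 52 mitochondrial ribosomal proteins, with 11 lower (21.2%), 2 higher (3.85%) and a median of -0.003. Of 39 proteasome subunits 13 (33.3%) were lower and 0 higher (median -0.57). The immunoproteasome subunit Psmb8 had 83 and 120 RIP reads (-2.04), and the regulatory subunit Psmd11 had 563 and 105 (0.90). Of 20 tubulins and kinesins 6 (30%) were lower and 0 higher (median -0.71), with Tuba1b, one of several similar alpha-tubulins, at 35 and 47 reads (-1.93).

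The highest median belonged to the factors that themselves act on the poly(A) tail and the 3′-UTR. Of 17 CPEB, Pumilio, BTG/TOB and poly(A) factors 4 (23.5%, against 9.73% of all genes) were past 2-fold higher and 0 lower, with a median of 0.73, an Input median of 0.16 and an untreated median of 0.76. Cpeb4 is itself among them. Btg2, which brings the deadenylase to mRNAs, had 974 and 155 RIP reads (1.13, 0.88 to 1.37) and 355 and 222 Input reads, and the poly(A)-binding protein Pabpc1 had 711 and 193 (0.36). In this list 70.6% of genes had a predicted CPE arrangement. Of 17 ARE-binding proteins 2 were higher (11.8%, near the 9.73% of all genes) and 0 lower, with a median of 0.36. They were led by Hnrnpd, also called AUF1 (244 and 38 reads, 1.14), and Zfp36l1, a relative of tristetraprolin (582 and 100 reads, 1.01, with 141 and 167 Input reads). The list of CCR4-NOT deadenylase subunits together with Tnrc6b, 13 genes, had a median of 0.27, with 1 higher (7.69%, against 9.73% of all genes) and 0 lower. Of 47 snRNP and SF3 proteins of the spliceosome 10 were higher (21.3%, against 9.73% of all genes) and 4 lower (8.51%, against 17.4%). Their median was 0.35, with Snrpa at 1.81 (69 and 6 reads) and Sf3b2 at -1.17 (129 and 101 reads). The 14 SR splicing factors had a median of 0.41 after LPS and of -0.33 in the untreated RIPs, a difference that was not tested.

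Transcription factors had members at both ends. Of 28 EGR, KLF and early-response factors 9 were higher (32.1%, against 9.73% of all genes) and 2 lower (7.14%, against 17.4%). Their median was 0.60. Klf2, a factor that restrains macrophage activation, had 193 and 21 RIP reads (1.62, 0.99 to 2.26) and 39 and 29 Input reads, while its relative Klf3 had 436 and 318 RIP reads (-1.06) with 252 and 181 in the Inputs. Of 28 AP-1, ATF, CREB and C/EBP factors 5 were higher (17.9%, against 9.73% of all genes) and 5 lower (17.9%, near the 17.4% of all genes). Their median was 0.35. Jdp2, an AP-1 repressor, had 468 and 58 RIP reads (1.47, 1.08 to 1.87) and Atf3, a stress-induced repressor of cytokine genes, had 295 and 347 (-1.75, -1.97 to -1.53). Their Input ratios were -0.14 and -0.44, so members of 1 family with similar roles stood at opposite ends. Of 67 Mediator, TFIID and RNA polymerase II subunits 13 were higher (19.4%, against 9.73% of all genes) and 6 lower (8.96%, against 17.4%). Their median was 0.21, with Taf12 at 131 and 12 reads (1.83) and Polr2d at 135 and 14 (1.66). Of 24 NF-kB subunits, inhibitors and kinases 0 were higher and 6 lower (25%, against 17.4% of all genes), with 13 below and 11 above the median of all genes. Rela, the p65 subunit, had 72 and 61 RIP reads (-1.28) and 336 and 226 Input reads. Of 50 lysine demethylases and methyltransferases 9 were higher (18%, against 9.73% of all genes) and 4 lower (8%, against 17.4%). Kdm6b, which removes methyl groups from histone H3 and is induced in macrophages, had 383 and 53 reads (1.31), and Kdm4c, another demethylase of histone H3, had 45 and 5 (1.42).

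**Figure D3:**
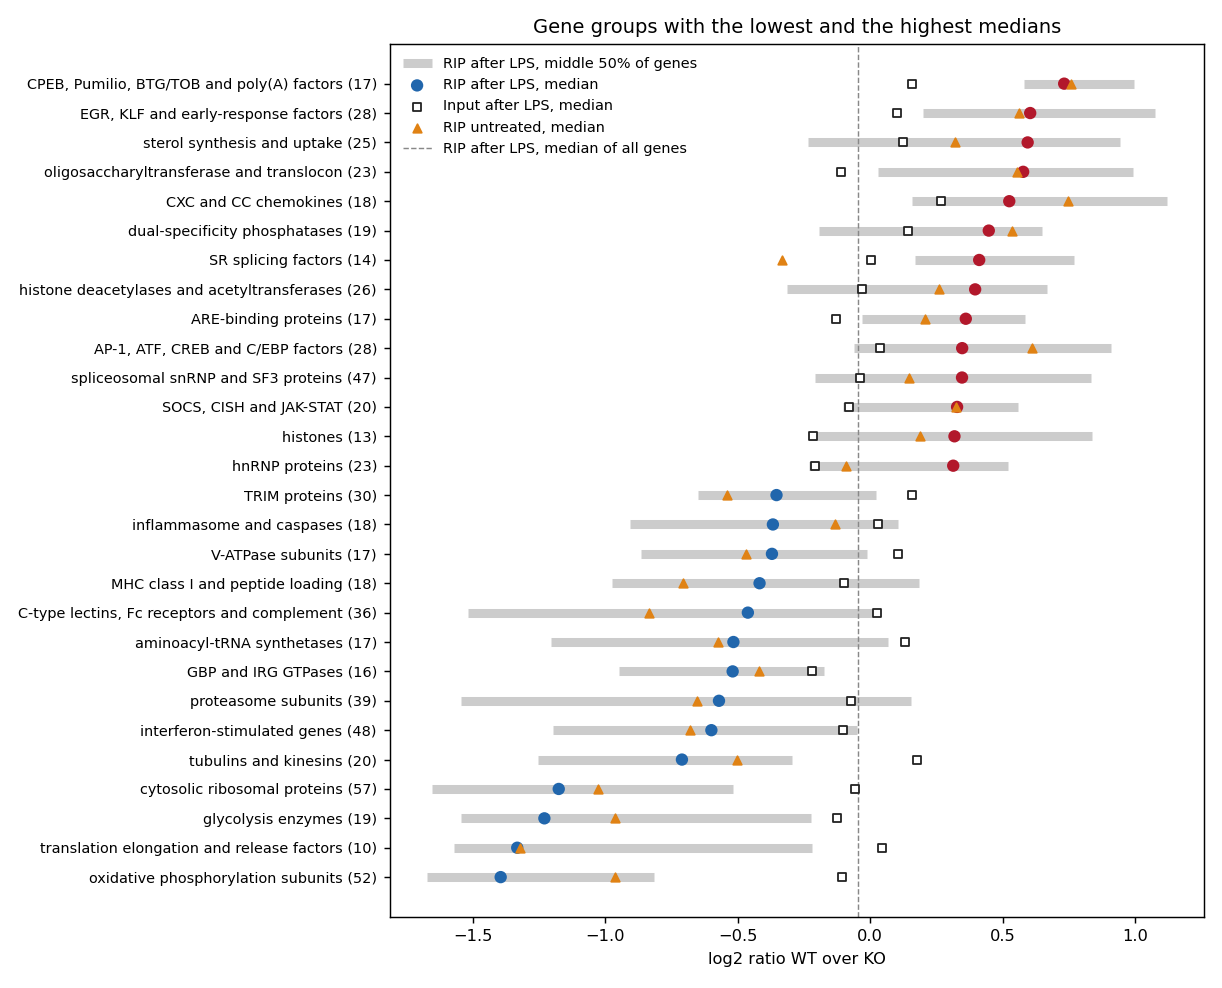
Median log2 ratio of WT over KO for the 14 gene groups with the lowest and the 14 with the highest medians among 77 groups of 10 or more measured genes, with points for the RIPs after LPS and bars from the lower to the upper quartile over genes, squares for the Inputs after LPS, triangles for the untreated RIPs and a dashed line at the median of all genes. Oxidative phosphorylation subunits lie at -1.39 and CPEB, Pumilio, BTG/TOB and poly(A) factors at 0.73, while the Input medians lie close to 0 at both ends.

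Inflammatory mRNAs did not move as 1 group. Of 18 CC and CXC chemokines 6 were higher (33.3%, against 9.73% of all genes) and 1 lower (5.56%, against 17.4%) in the WT RIP. Their median was 0.52, and the WT Input was past 2-fold higher for 4 of the 18 (Input median 0.27). The 1 past 2-fold lower was Ccl5, a T-cell attractant, with 530 and 482 RIP reads (-1.38, -1.56 to -1.20) and 657 and 645 Input reads. Cxcl10 was also below 0, with 1334 and 695 RIP reads (-0.58, -0.71 to -0.44) and an Input ratio of -0.59. Of the 18 chemokines, 4 lay below the median of all genes and 14 above it. Of 24 secreted cytokines and growth factors 7 were higher (29.2%, against 9.73% of all genes) and 2 lower (8.33%, against 17.4%). Their median was 0.18. Osm, an IL-6 family cytokine, had 81 and 5 RIP reads (2.26, 1.06 to 3.45) and 48 and 20 Input reads. Il12b, the shared subunit of IL-12 and IL-23, had 725 and 83 RIP reads (1.60) and an Input ratio that was larger still, 1.80, from 391 and 88 reads. The same held for Il1a, with 1185 and 162 RIP reads (1.35) and 750 and 206 Input reads (1.52), so for both the RIP ratio was no larger than the difference in the lysates. Il1b, the related cytokine processed by the inflammasome, had 1092 and 685 RIP reads (-0.84, -0.98 to -0.71) and equal scaled Input levels from 983 and 764 reads (0.026).

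Of 26 interleukin and interferon receptors 1 was higher and 5 (19.2%, against 17.4% of all genes) lower, a share near that of all genes (median -0.29). Ifngr1, the ligand-binding chain of the interferon-gamma receptor, had 125 and 13 RIP reads (1.65, 0.86 to 2.45) and 48 and 51 Input reads, and Il4ra had 297 and 342 RIP reads (-1.72, -1.94 to -1.50) and 644 and 705 Input reads. In the TNF superfamily 1 of 20 was higher (5%, against 9.73% of all genes) and 2 lower (10%, against 17.4%). Tnfrsf21, a death-domain receptor, had 147 and 13 reads (1.89). The 19 dual-specificity phosphatases include some that switch off MAP kinases, and also Ssh2. Of these 19, 2 were higher (10.5%, near the 9.73% of all genes) and 1 lower (5.26%, against 17.4%). Their median was 0.45, with Dusp7 at 618 and 102 reads (1.07, 0.77 to 1.37). The 46 kinases of the MAP kinase cascades had 1 higher (2.17%) and 6 lower (13%, against 17.4% of all genes), with a median of 0.18. Of 11 prostaglandin and leukotriene enzymes 2 were higher (18.2%, against 9.73% of all genes) and 1 lower (9.09%, against 17.4%). Their median was -0.15, and 6 lay below the median of all genes. With 50 or more reads the highest were Pla2g4a, the phospholipase that frees arachidonic acid (112 and 13 reads, 1.50), and Ptgs2. Ptgs2, the inducible cyclooxygenase, had 3136 and 507 reads (1.11) and 723 and 474 Input reads. The lowest at that limit were Alox5ap (-0.32) and Pla2g15 (-0.38).

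Of 48 interferon-stimulated genes 2 were higher and 15 lower (31.2%, against 17.4% of all genes; median -0.60, Input median -0.10). The 2 that were higher were Isg20, an exonuclease, with 45 and 6 reads (1.20, 0.053 to 2.35), and Irf9, the DNA-binding part of the interferon-activated complex ISGF3, with 278 and 47 (1.02, 0.58 to 1.47). In the other direction Irf7, the factor that drives type I interferon genes, had 33 and 32 reads (-1.47). Of 6 schlafen genes 3 (50%) were lower and 0 higher (median -0.98), with Slfn2 at 217 and 206 RIP reads (-1.44) and 477 and 392 Input reads. The 16 guanylate-binding and immunity-related GTPases had 0 higher and 4 lower (25%, against 17.4% of all genes), with a median of -0.52. The 18 genes of MHC class I and peptide loading had 1 higher and 4 lower (22.2%, against 17.4%), with a median of -0.42. Each of these shares lower rests on 4 genes. H2-D1, a classical class I heavy chain with near-identical relatives, had 582 and 401 reads (-0.98), and the peptide transporter Tap1 had 489 and 96 (0.82). Of 36 C-type lectins, Fc receptors and complement genes 14 (38.9%) were lower and 3 (8.33%) higher (median -0.46). Of 16 macrophage markers 7 (43.8%) were lower and 1 (6.25%) higher (median -0.58). Among these markers Csf1r, the M-CSF receptor, had 204 and 146 RIP reads (-1.04). The Csf1r region shares 873 bases with an exon of Hmgxb3 on the other strand.

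The lists of sterol genes and of the oligosaccharyltransferase and translocon were above the median of all genes. Among other transport lists, coatomer, Sec and TRAPP proteins (0.14) were also above it. SNAREs and AP complexes (-0.17) and retromer, VPS, sorting nexin and ESCRT proteins (-0.25) were below it. Of 25 genes of sterol synthesis and uptake 6 were higher (24%, against 9.73% of all genes) and 2 lower (8%, against 17.4%). Their median was 0.59. Cyp51, a demethylase of cholesterol synthesis, had 233 and 32 RIP reads (1.31), and Abca1, the cholesterol exporter, had 752 and 106 (1.30, 1.01 to 1.59) with 202 and 165 Input reads, whereas Lss, which closes the sterol ring, had 30 and 27 (-1.37). Of 23 genes of the oligosaccharyltransferase and the translocon 6 were higher (26.1%, against 9.73% of all genes) and 4 lower (17.4%, the share of all genes). Their median was 0.58. The catalytic subunit Stt3a had 313 and 28 RIP reads (1.92, 1.37 to 2.47), beside Rpn1 at 2.54, while Rpn2 had 27 and 28 (-1.57) and Dad1 37 and 26 (-1.02), so subunits of 1 enzyme complex lay at opposite ends. Of 141 solute carriers 23 were higher (16.3%, against 9.73% of all genes) and 21 lower (14.9%, against 17.4%). Of 117 TMEM proteins 16 were higher (13.7%) and 22 lower (18.8%, near the share of all genes). The 166 Zfp and KRAB zinc finger proteins, a family defined by its DNA-binding domain, had a median of -0.27. Of them 5 were higher (3.01%, against 9.73% of all genes) and 35 lower (21.1%, against 17.4%). With 50 or more reads their median was 0.18 over 59 genes, above the 0.13 of all genes at that limit.

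The position of a group in the WT over KO ratio can be set beside the level of each RIP over its own Input, which uses the same libraries and is given as a description. Genes past 2-fold higher had a median log2 level of 1.06 in the WT RIP over the WT Input and of -0.21 in the KO RIP over the KO Input, a median above the Input in WT and below it in KO. Genes past 2-fold lower had medians of -1.66 in WT and -0.04 in KO. Oxidative phosphorylation subunits lay at -1.12 in WT and 0.35 in KO, glycolysis enzymes at -1.29 and -0.70, and cytosolic ribosomal proteins at -0.057 and 0.93. CPEB, Pumilio, BTG/TOB and poly(A) factors were above the Input in both, at 1.39 and 0.86, as were SR factors, at 1.49 and 1.05. With the authors' library totals the WT values would change by 0.51 and the KO values by -0.68, which turns the sign for oxidative phosphorylation subunits in KO (-0.34) and for cytosolic ribosomal proteins in WT (0.46) and for no other value of this paragraph.

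**Figure D4:**
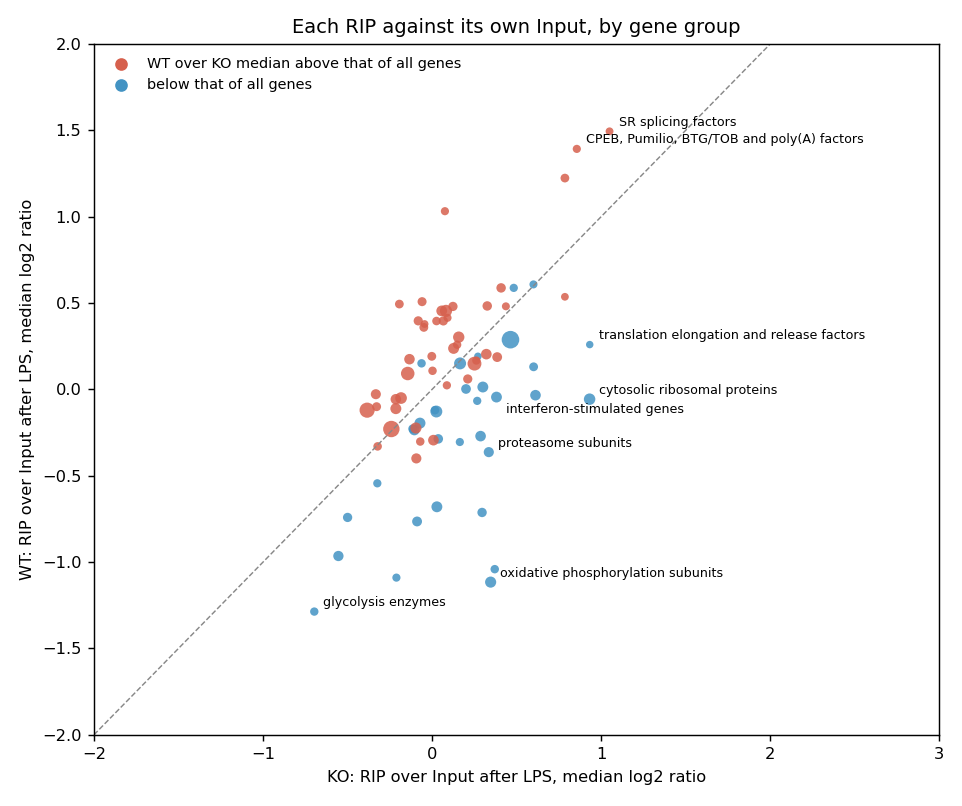
Median log2 level of the RIP over its own Input after LPS, in KO (horizontal axis) and WT (vertical axis), 1 point for each gene group of 10 or more measured genes, larger for larger groups, red where the WT over KO median of the group is above that of all genes and blue where it is below; the dashed line marks equal values. The poly(A) factors at 0.86 and 1.39 lie above the diagonal and oxidative phosphorylation subunits at 0.35 and -1.12 below it.

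Several sequence features of the regions moved with the ratio. Among 5182 genes with 50 or more reads, the median ratio was -0.47 for the 1298 regions with 0 CPEs and -0.02, 0.19, 0.24, 0.35 and 0.43 for those with 1, 2, 3, 4 and 5 or more. The share past 2-fold lower went from 26.3% to 1.03% over the same steps, while the share past 2-fold higher was 4.24% at 0 CPEs, 14.8% at 4 and 11.8% at 5 or more. The Input medians of these bins stayed between 0.004 and 0.060. The KO RIP over its own Input also rose with the number of CPEs, from a median of -0.37 at 0 to 0.57 at 5 or more. The WT RIP over its own Input went from -0.84 to 0.99 over the same steps. GC content moved with the ratio as well, from a median of 0.48 in the lowest of 5 bins of GC content to -0.46 in the highest, and so did each RIP over its own Input in both genotypes. Within the lowest GC bin the medians were -0.08 with 0 CPEs and 0.56 with 3 or more, and within the highest they were -0.74 and -0.01. Within 5 bins of region length the medians with 0 CPEs ran from -0.57 to -0.40 and those with 3 or more from 0.27 to 0.60. Regions without the ARE core ATTTA had a median of -0.36 and those with 3 or more 0.29. ATTTA was found in 54.7% of all regions, and its letters can overlap those of a CPE. By WT Input level (scaled reads per base of the region), the median was 0.42 in the lowest of 5 bins and -0.39 in the highest. Only genes with 50 or more RIP reads were binned, so a gene low in the Input entered only with enough RIP reads. The lowest bin had a median log2 level of 1.26 in the WT RIP over its Input. The part of this limit in the trend was not tested. The part of GC content, length and abundance in the ratios was not tested further.

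The authors' tables also hold a prediction of what the CPE arrangement does, computed from the sequence. Any such arrangement was present in 54.6% (Wilson 95% interval 51.2 to 58.0) of the 809 genes past 2-fold higher and in 174 of the 1447 past 2-fold lower (10.4 to 13.8%). With 50 or more reads the medians were 0.37 for arrangements predicted to repress only, 0.33 for early weak activation, 0.38 for early strong activation and 0.41 for the 54 genes with late or biphasic activation, against -0.13 with no arrangement. The classes with an arrangement thus lay close to each other.

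**Figure D5:**
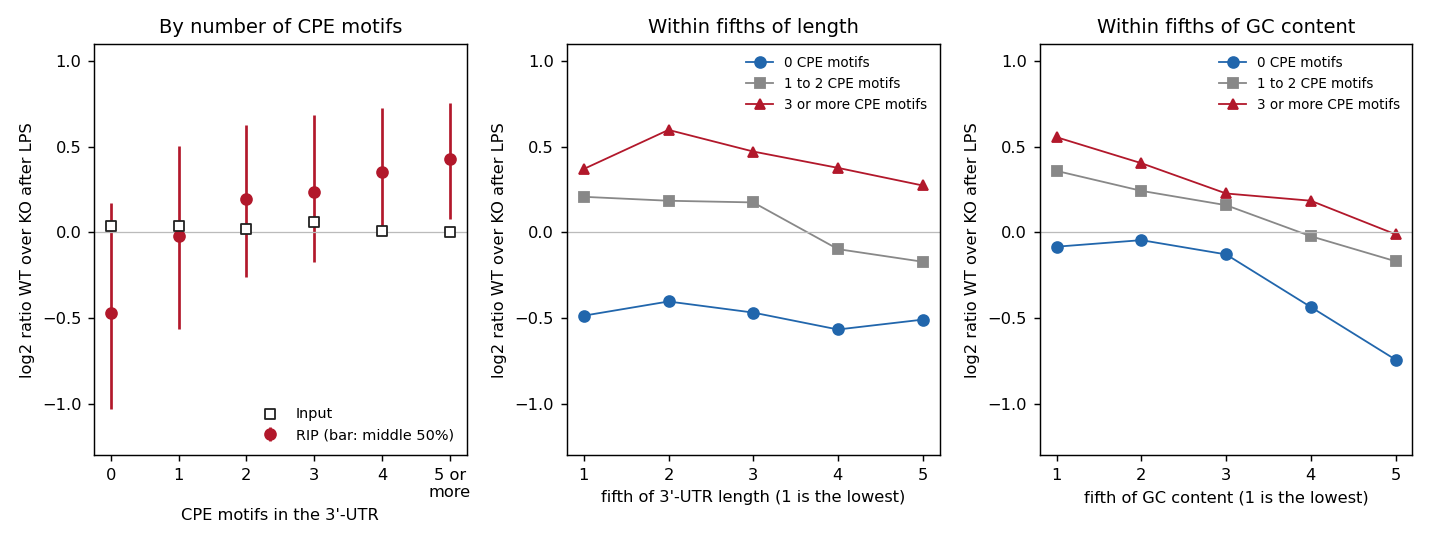
Log2 ratio of WT over KO in the RIPs after LPS by the number of CPEs in the region, for genes with 50 or more reads, with the median, a bar from the lower to the upper quartile over genes and squares for the Input median (left), and the RIP medians by CPE number within 5 bins of 3′-UTR length (middle) and of GC content (right). The RIP median goes from -0.47 with 0 CPEs to 0.43 with 5 or more while the Input median stays near 0, and within each bin the genes with 3 or more CPEs lie above those with 0.

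For 146 genes, 2 or more regions that do not overlap had 50 or more RIP reads each, so the 3′-UTRs of 1 gene could be set side by side. The highest region was taken minus the lowest, a difference that is above 0 by construction and is given as a description. It was largest for Zeb2, a repressor of the zinc finger homeobox family. Its region at chr2:44987118-44987987 had 568 and 132 reads in the WT and KO RIPs (0.58) and held 6 CPEs, and its region at chr2:45095583-45097156 had 32 and 56 (-2.30) and held 1, a difference of 2.89. Large differences were also found for Rprd1b (2.47), Wipi1 (2.19) and Son (2.19). Wipi1, a protein of autophagosome formation, was the only gene with regions past 2-fold in opposite directions, at 1.12 and -1.07.

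The untreated RIPs, which share no library with the LPS pair, can be set beside it and carry the same numbers in their titles. Of the 720 genes past 2-fold higher after LPS that had 10 or more untreated reads, 40.4% were past 2-fold higher there as well, against 9.6% of all genes, and 1.11% were lower. Of the 1167 lower genes, 584 were lower in the untreated RIPs, against 13.1% of all genes, and 7 were higher. Since each pair is 1 WT and 1 KO library, what the 2 treatments share includes whatever else differed between the WT and the KO cells used.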

How the data were processed

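CPEB4 RIPs and their Inputs were sequenced from BMDMs of both genotypes, with and without LPS. Per the labels and the study's methods, the authors aligned the reads with Bowtie2 2.2.2 to mm10 and called peaks with MACS 1.4.2, the counter being not given in the sources used here. The deposited counts are whole reads per 3′-UTR region, with the 2 lanes of a library summed (16 samples, 8 libraries). The authors' RPKM columns served only to recover each library's total. The deposited tables also hold the authors' own fold changes, p-values and peak scores, which were not used.

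Ratios were log2((WT reads + 1)/WT sum) minus the same for KO, with a 95% normal interval from the counts, tested on simulated data. "Past 2-fold" is a size, not a test, since no group had a replicate. Regions with fewer than 10 reads in the pair and 495 rows without a symbol were left out. Named were Cpeb4, the 15 genes at either end by interval bound, in each list up to 4 members with 50 or more reads, the highest and lowest first, and the 5 genes whose regions differed most; some of these are not reported here. The members and lists were chosen with earlier results of these data known. Lanes are technical and paired nothing. Sequences and annotation came from GRCm38 and GENCODE M21, in which 26 of 31 leading regions lie within an annotated 3′-UTR. The regions not matched were those of Slc7a11, Ctsa, Treml2, Slfn4 and Rrp1. Alternatives were library totals, TMM (edgeR 4.0.16, R 4.3.3), a median of 0, other added reads and minimums, the Input-subtracted ratio, distinct coordinates and the longest region. Python 3.11.15, numpy 2.4.6, pandas 2.3.3, scipy 1.17.1, pysam 0.24.0 and matplotlib 3.10.9 were used.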

Additional observations from a re-analysis of the deposited data

How the results depend on the processing

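No paired analysis was possible because each group had 1 library, and the numbers in the labels are lanes of it; for the same reason no library could be left out. The counts of genes past 2-fold depended on the scaling. The 809 higher and 1447 lower genes became 4512 and 169 with the authors' library totals (96.4% of the calls higher, against 35.9%) and 1615 and 883 with TMM factors (64.7%), which lift every ratio by 1.14 and 0.34. By region the counts were 8232 and 403 with library totals and 2893 and 1964 with TMM. Adding 5 reads left 312 genes and 543 regions higher. With a minimum of 50 reads the counts were 525 and 507 genes, 893 and 938 regions, 33 and 27 genes in the Inputs and 431 and 270 in the untreated RIPs. With a minimum of 1 read, 4603 genes and 9656 regions were lower. A predicted CPE arrangement was found in 8.28% of the lower genes with library totals, 8.61% with TMM and 18.4% with 1 read, and 60.9% of the higher genes with 5 reads added, 59.4% with 50 reads and 58.1% for the RIP ratio minus the Input ratio; the share was larger among the higher genes under all of these settings. Against the median of all genes, 2 list medians changed side: Zfp and KRAB zinc finger proteins to 0.046 with 50 reads and solute carriers to -0.0058 for the RIP ratio minus the Input ratio. Under that subtraction Cpeb4 (-0.19), Il12b (-0.10) and Il1a (-0.071) also changed side. Few reads in the KO RIP limit the higher ratios, since 1296 members had 3 or fewer there against 95 in the WT RIP, and no value here measures the spread between cultures.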
